A study of Mus musculus with 2 samples.

Results

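Doublecortin, the structural microtubule-associated proteins (MAPs), the stathmins and Gap43 are cytoskeletal genes closely tied to the outgrowth of a young neuron. The genes examined were Dcx, Dclk1, Map1b, Map2, Mapt, Stmn1, Stmn2, Stmn3, Stmn4 and Gap43, taken by gene symbol from the deposited count table. All 10 were found, each in 1 row, among 19595 genes. RNA came from cells labelled brain neural stem cell, of the mouse strain ICR at embryonic day 13. The control library carries the label psicor and the genotype WT, and the knockdown library carries the label sh1 and the genotype KO. The title of the series names Ccdc25, a coiled-coil protein, and asks about its part in neurogenesis. The design text speaks of triplicates, but the table holds 1 column of counts per group, and nothing says whether cultures were pooled or summed in it. No difference described here therefore has a replicate check, none was tested, and every interval is a 95% one that covers counting error only.

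Microtubules are polymers of tubulin that grow and shrink at their ends, and neurons stabilise them to build axons and dendrites. MAPs such as tau, MAP1B, MAP2 and doublecortin bind along the polymer and stabilise or bundle it, whereas stathmins bind free tubulin dimers and favour disassembly. GAP-43 is not a MAP: it is a membrane-bound protein of the growth cone that binds calmodulin and is phosphorylated by protein kinase C. In the embryonic brain, Dcx, Stmn2 and Gap43 are widely used as marks of newborn and differentiating neurons, while Stmn1 is also abundant in dividing progenitors.

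The stretches before the transcription start of 3 members are shown, because Map1b lay furthest below its control level, Dcx is a defining gene of migrating neurons and Map2 was the exception among the 10. RefSeq promoter windows (build GRCm38.p6, 250 bases before to 50 after the start) were found for 5 of the 10 members, namely Map1b, Map2, Dcx, Dclk1 and Stmn3. Each stretch ends where the first GENCODE M21 exon or the RefSeq start begins and runs 5′ to 3′ on the gene's strand. Capitals mark the letters of an E-box form (CAGATG), a GC box (GGGCGG) and a TATA box (TATAAA), wherever they stand, searched on both strands. The Map1b stretch is chr13:99516603-99516852 on the minus strand, the Dcx stretch chrX:143933312-143933469 on the minus strand, and the Map2 stretch chr1:66175079-66175272 on the plus strand.
Map1b: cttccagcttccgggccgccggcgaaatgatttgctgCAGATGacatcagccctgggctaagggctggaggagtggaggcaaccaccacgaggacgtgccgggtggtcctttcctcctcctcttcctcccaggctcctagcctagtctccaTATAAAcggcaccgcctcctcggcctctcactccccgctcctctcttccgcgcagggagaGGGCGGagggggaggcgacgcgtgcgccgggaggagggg
Dcx: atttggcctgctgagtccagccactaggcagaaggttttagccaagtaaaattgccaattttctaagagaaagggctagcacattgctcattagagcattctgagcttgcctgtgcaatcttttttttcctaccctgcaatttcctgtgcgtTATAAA
Map2: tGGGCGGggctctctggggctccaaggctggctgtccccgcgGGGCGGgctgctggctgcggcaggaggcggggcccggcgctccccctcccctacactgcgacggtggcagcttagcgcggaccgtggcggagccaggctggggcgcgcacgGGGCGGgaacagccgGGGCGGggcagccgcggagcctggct

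The 3 windows differ in base composition and in the motifs they hold. GC made up 77.7% of the 300 bases of the Map2 window, 65.7% of the Map1b window and 43.0% of the Dcx window shown, against a median of 52.7% over 32817 promoter windows. GGGCGG stood 5 times in the Map2 window and 2 times in that of Map1b, and 35.6% of all windows hold it. TATAAA was found in the Map1b and Dcx windows, and in 13.6% of all windows. It began at -99 from the RefSeq start in Map1b and at -98 in the Dcx window shown. CAGATG was found in the windows of Map1b and Stmn3, and in 17.2% of all windows. A further E-box form, CAGCTG, held by 16.3% of all windows, was in none of the members' windows. Neither Dclk1 window held any of these motifs, and no motif overlapped another. These matches describe the letters in the window and nothing more.

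Depth and the cells' own markers frame the values that follow. Genes received 16549682 counts in the control library and 16058407 in the sh1 library, and levels are given as CPM, that is, counts after TMM scaling to equal library sizes. Ccdc25 had 553 control and 411 sh1 counts, which put sh1 at 0.794 of control (0.697 to 0.904). The library labelled as the knockdown thus kept most of the control level of Ccdc25, and 23.1% of genes averaging 10 CPM or more lay further below control than Ccdc25 did. All 12 markers of radial glia were detected in both libraries, at a summed 6888 and 9022 CPM. The 19595 deposited genes leave out some genes, among them the endothelial marker Cldn5. Of those deposited, only 217 in control and 356 in sh1 had 0 counts, so detection alone does not bear out the label. Neuron markers summed to 1942 CPM in control and 655 CPM in sh1, with 12 of 13 below their control level, beside 50.3% of all genes. The part of neurons in the results for the 10 genes was not tested. In bulk RNA, fewer neurons and less RNA per neuron cannot be told apart.

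Nearly all members of the group had less RNA in the knockdown library. The 10 genes were chosen with earlier results of these data known, so the values for all genes give scale and are no test. Of the 10 genes, 7 were lower by 2-fold or more, 0 were higher by 2-fold or more, and 3 lay in between. Over the 14158 genes that averaged 1 CPM or more, 7.76% were lower and 7.64% higher by 2-fold or more. Every member averaged over 100 CPM, and of the 2327 genes at or above that level 2.58% were lower and 4.77% higher by 2-fold or more. Ignoring size, 9 of the 10 were below control, beside 50.3% of all genes. The median log2 fold was -1.37 for the 10 genes and -0.004 for all genes past the minimum. The interval of the ratio was wholly below 1 for 9 members and wholly above it for 1, against 33.6% and 33.2% of all genes. Summed, the 10 genes made up 0.515% of control counts and 0.220% of sh1 counts.

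**Figure D1:**
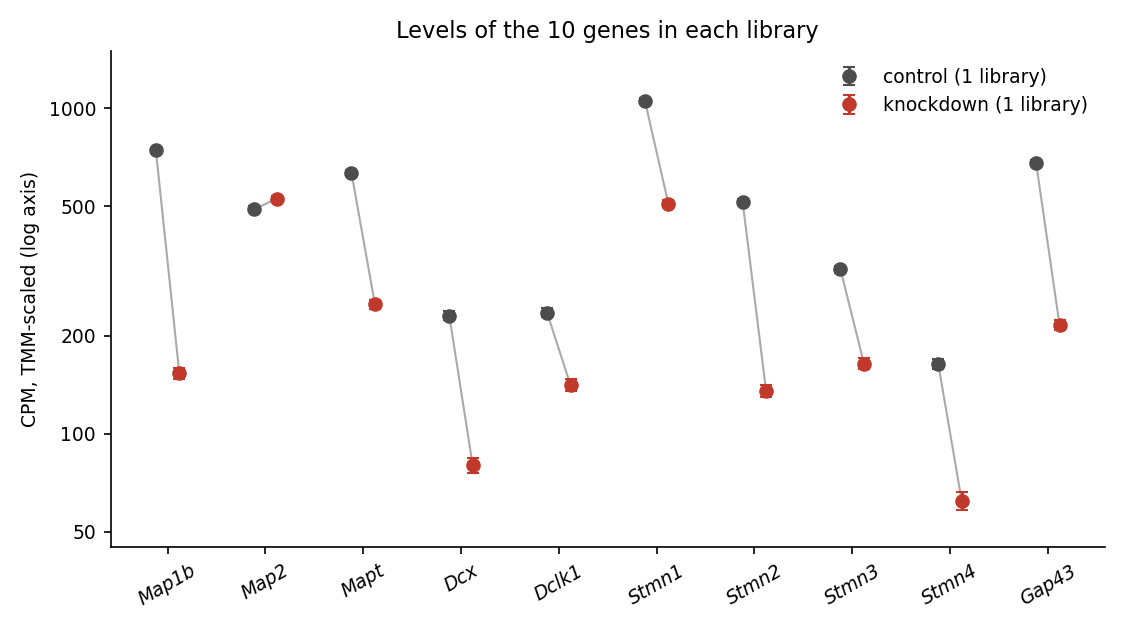
Level of each of the 10 genes in the control (grey) and the knockdown library (red), in CPM on a log axis, with exact 95% Poisson intervals that cover counting error only; lines join the values of a gene. In 9 genes the red point lies below the grey one, and for Map2 it lies slightly above, at 527 against 489 CPM.

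Among the structural MAPs of the group, Map1b and Mapt were lower in the knockdown library and Map2 was not. Other MAPs, given below, had a median log2 fold of -0.13. Map1b, a MAP expressed early in growing axons, had 12518 control and 2415 sh1 counts, or 743 and 153 CPM. The sh1 level was 0.206 of control (0.197 to 0.215), and only 0.353% of genes averaging 10 CPM or more lay further down. Mapt encodes tau, a MAP enriched in axons. It had 10663 control and 3941 sh1 counts, or 633 and 250 CPM, so sh1 stood at 0.395 of control (0.381 to 0.410). Map2 encodes the MAP of dendrites and cell bodies, with 8239 control and 8314 sh1 counts, or 489 and 527 CPM. Its sh1 level was 1.08 times control (1.05 to 1.11), a log2 fold of 0.11 that was 0.057 with total-count scaling and was above 0 under each scaling tried. By log2 fold, 60.5% of genes averaging 10 CPM or more lay below Map2.

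The contrast of Map2 with Map1b and Mapt does not depend on how the libraries are scaled, because it can be read within each library. For every Map2 count there were 1.52 Map1b counts in control and 0.290 in sh1, a quotient of 0.191 (approximate interval 0.181 to 0.202). For Mapt the counts per Map2 count were 1.29 and 0.474, a quotient of 0.366 (0.349 to 0.384). The same held for Dcx and for Gap43, with quotients of 0.321 (0.300 to 0.345) and 0.295 (0.281 to 0.309). The table counts whole genes, so the splice forms of Map2 and Mapt, which change during development, were not separated. Map2 shares 124 exonic bases, 0.754% of its exonic length, with Gm10558 on the opposite strand, which had 11 and 34 counts.

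Dcx and Dclk1 encode proteins with the same type of microtubule-binding doublecortin domain, and Dclk1 adds a kinase domain. Dcx, known for its role in the migration of cortical neurons, had 3888 control and 1261 sh1 counts, or 231 and 80.0 CPM. The sh1 level was 0.347 of control (0.325 to 0.369). Dclk1, which is also expressed in radial glia and dividing progenitors, had 3968 control and 2223 sh1 counts, or 235 and 141 CPM. At 0.599 of control (0.568 to 0.631) it stayed within 2-fold. There were 0.980 Dcx counts per Dclk1 count in control and 0.567 in sh1, a quotient of 0.579 (approximate interval 0.533 to 0.628). Dclk2, a close relative of Dclk1 and named here after its value was seen, was instead higher, with 197 CPM in control and 303 CPM in sh1, or 1.54 times control (1.47 to 1.61). Dclk3, of the same family and also named after its value was seen, had 50 control and 45 sh1 counts, or 0.962 of control (0.628 to 1.47). Dclk1 shares 87 and 27 exonic bases with Gm42609 and Gm21954 on the opposite strand, and Gm42609 had 9 and 4 counts.

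**Figure D2:**
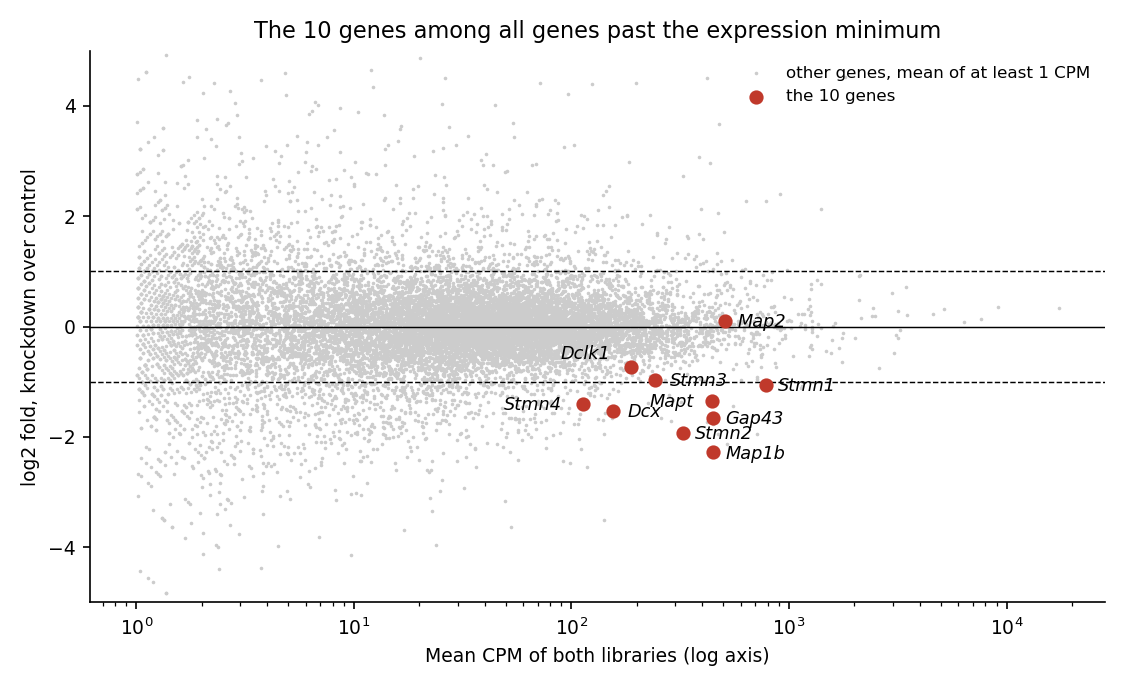
Log2 fold (knockdown over control) against the mean CPM of both libraries on a log axis, for the 10 genes (red) and the other genes averaging 1 CPM or more (grey); dashed lines mark 2-fold, and 39 genes beyond a log2 fold of 5 in either direction are not drawn. Map1b lies lowest of the 10 at -2.28, Dclk1 and Stmn3 lie inside the 2-fold lines, and Map2 lies at 0.11.

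All 4 stathmins were below their control level, by different amounts. Stmn1 encodes stathmin itself, which is cytosolic and has the shortest coding sequence of the family, 447 bases against 537 for Stmn2, 540 for Stmn3 and 648 for the longest form of Stmn4. It had 17773 control and 8030 sh1 counts, or 1055 and 509 CPM, which is 0.483 of control (0.470 to 0.496). Stmn1 shares 66 exonic bases, 3.43% of its exonic length, with the microRNA gene Gm23634 on the same strand, which is not among the deposited genes. Stmn2, or SCG10, is a neuronal stathmin that is anchored to membranes and concentrated in growth cones. It had 8669 control and 2128 sh1 counts, or 514 and 135 CPM, which is 0.262 of control (0.250 to 0.275). After Map1b, Stmn2 was the member furthest below control, and 0.834% of genes averaging 10 CPM or more were further down.

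Stmn3, or SCLIP, is a membrane-anchored stathmin found mainly in neurons. It had 5390 control and 2591 sh1 counts, or 320 and 164 CPM, which is 0.514 of control (0.490 to 0.538). Its log2 fold of -0.96 lay just within 2-fold, and with total-count scaling it was -1.01, which brought the members lower by 2-fold or more to 8. Stmn4, or RB3, had the fewest counts of the family. It had 2760 control and 979 sh1 counts, or 164 and 62.1 CPM, which is 0.379 of control (0.352 to 0.408).

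Because the 4 genes differed in size of change, the make-up of the stathmin counts was not the same in both libraries. Stmn2 supplied 25.1% (24.6% to 25.5%, Clopper-Pearson) of 34592 stathmin counts in control and 15.5% (14.9% to 16.1%) of 13728 in sh1. Stmn1 supplied 51.4% (50.9% to 51.9%) and 58.5% (57.7% to 59.3%). The share of Stmn3 was 15.6% (15.2% to 16.0%) in control and 18.9% (18.2% to 19.5%) in sh1, and that of Stmn4 was 7.98% (7.70% to 8.27%) and 7.13% (6.71% to 7.57%). For each of the 4 genes, the intervals of the libraries did not overlap, but they cover counting error only. No such shares were computed for other genes. By a different measure, the ratio of a single gene to its control, the counting interval was wholly below 1 for 33.6% of all genes past the minimum. It was wholly above 1 for 33.2%. Stmn3 and Stmn1 kept close to a fixed ratio, with 0.303 Stmn3 counts per Stmn1 count in control and 0.323 in sh1, a quotient of 1.06 (approximate interval 1.01 to 1.12).

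**Figure D3:**
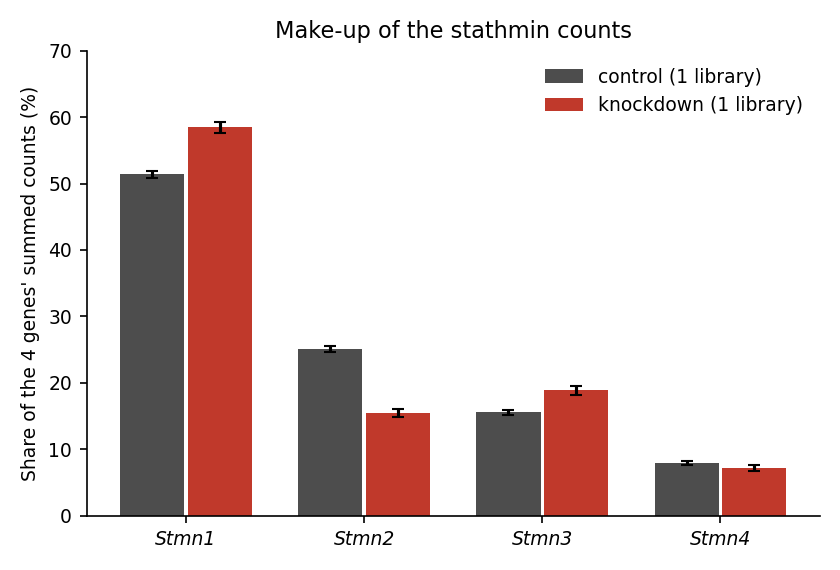
Share of each stathmin gene in the summed counts of the 4 genes, in percent, for the control (grey) and knockdown (red) library, with exact 95% binomial intervals that cover counting error only. The bar of Stmn2 is lower in the knockdown library, at 15.5% against 25.1%, and those of Stmn1 and Stmn3 are higher.

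Stmn1 is also a gene of dividing cells, and markers of division were lower in the same library. All 12 of these markers were below control, beside 50.3% of all genes, and their median log2 fold was -0.78. Their summed level was 2473 CPM in control and 1552 CPM in sh1. Mki67, the Ki-67 proliferation antigen, had 264 and 165 CPM, and Top2a, a topoisomerase of dividing cells, had 298 and 171 CPM. Pcna, the sliding clamp of DNA replication, had 394 and 308 CPM. The Stmn1 log2 fold of -1.05 lay between the median of these markers and that of the neuron markers, -1.69, and the part of either cell type in it was not tested.

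Gap43 was lower in the knockdown library by an amount close to that of the neuronal tubulin gene Tubb3. Gap43 had 11444 control and 3402 sh1 counts, or 679 and 216 CPM, which is 0.318 of control (0.306 to 0.330). For Tubb3 the levels were 1098 and 344 CPM, or 0.314 of control (0.304 to 0.323). Of genes averaging 10 CPM or more, 1.62% lay further below control than Gap43. Ina, an intermediate filament of neurons, was at 0.293 of control, and Elavl3, a neuronal RNA-binding protein, at 0.537. Other neuron markers, named after their values were seen, spread more widely: the synaptic vesicle gene Syt1 was at 0.0808 and the neurofilament gene Nefl at 0.138 of control, both below Map1b, and Elavl4 was at 0.869, above Dclk1. All members other than Map2 were inside the range of the 12 neuron markers that lay below control. That range leaves out Nhlh1 and is wide: 31.8% of genes averaging 10 CPM or more lay further below control than Elavl4.

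Levels of different genes were compared per kilobase of exonic length in GENCODE M21. Stmn1 was the highest of the 10 in both libraries, at 549 CPM per kilobase in control and 265 in sh1. Gap43 followed in control at 446, ahead of Stmn3 at 282. In sh1, Stmn3 at 145 and Gap43 at 142 had overlapping counting intervals. In control, Stmn2 at 91.8 was followed by Stmn4 at 85.5 and Mapt at 84.0 CPM per kilobase, of which the last pair overlapped. Mapt, Stmn4 and Map2 overlapped in sh1, at 33.2, 32.4 and 32.0 CPM per kilobase, and Stmn2 stood at 24.1. Map1b stood at 46.9 CPM per kilobase in control and 9.66 in sh1, where it overlapped Dclk1, and Map2 had 29.7 in control. The lowest control levels per kilobase were those of Dcx, 18.2, and Dclk1, 15.4, which had 6.32 and 9.22 in sh1. The order below the first place depends on the length used: with the longest coding sequence, Map2 was the last of the 10 in control and the sixth in sh1, and Map1b was the last there.

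Other structural MAPs had a median near that of all genes. Of 17 listed, 16 passed the minimum, with 2 lower and 2 higher by 2-fold or more and a median log2 fold of -0.13. The shares of all genes past the minimum were 7.76% lower and 7.64% higher. Map9, a MAP of the spindle and of cilia, had 52.3 CPM in control and 13.1 CPM in sh1, 0.250 of control (0.214 to 0.291). Camsap3, which binds microtubule minus ends, had a log2 fold of -1.38. The higher genes were Map7, a MAP that recruits kinesin-1, with 2.43 and 7.61 CPM, and Tppp3, a tubulin polymerisation-promoting protein, with 7.36 and 19.3 CPM. Map1a, a relative of Map1b that is abundant in mature neurons, was named after its value was seen and had 206 and 173 CPM, or 0.841 of control (0.799 to 0.884).

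The growth cone proteins listed apart from the 10 genes lay within 2-fold, mostly below control. Of 15 listed, 10 were below and 5 above, 0 passed 2-fold in either direction, and the median log2 fold was -0.45. Of all genes past the minimum, 50.3% were below control, and 7.76% were lower and 7.64% higher by 2-fold or more. Basp1, like Gap43 a membrane-associated substrate of protein kinase C, had 934 and 485 CPM, or 0.519 of control (0.505 to 0.534). Dpysl5 and Crmp1, which belong to the collapsin response mediator proteins, were at 0.506 and 0.530 of control. With total-count scaling, 1 gene of this list passed 2-fold lower. Marcks, another protein kinase C substrate at the membrane, was higher, with 964 and 1736 CPM, or 1.80 times control (1.77 to 1.84).

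Kinases that phosphorylate MAPs or stathmins were examined with their activators. Of 16 genes, 3 were lower and 0 higher by 2-fold or more, and the median log2 fold was -0.18. The shares of all genes past the minimum were 7.76% lower and 7.64% higher. The 3 were Mapk10 (JNK3), the JNK form most restricted to neurons, at a log2 fold of -1.42, Cdk5r2 (p39), an activator of Cdk5, at -1.21, and Mapk8 (JNK1) at -1.02. Cdk5r1 (p35), the main neuronal activator of Cdk5, was at -0.86, with 207 CPM in control and 114 CPM in sh1.

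**Figure D4:**
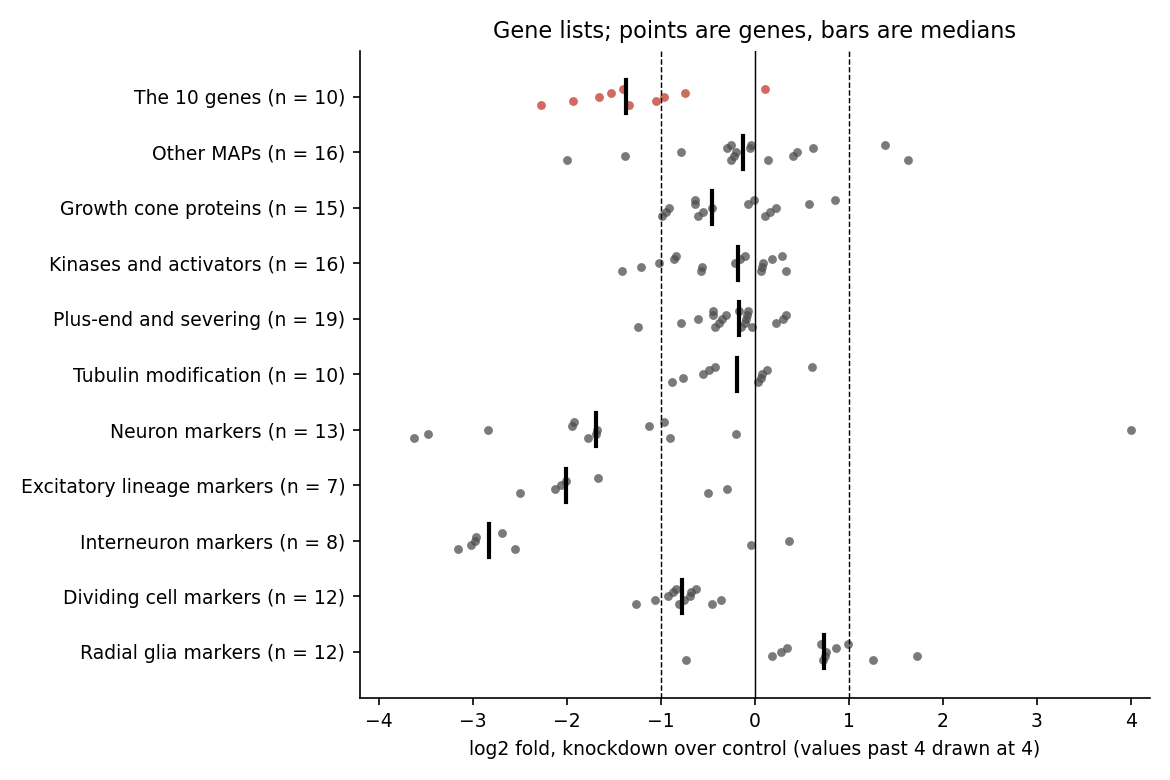
Log2 fold (knockdown over control) of each gene averaging 1 CPM or more in the 10 genes (red) and in lists of related genes and cell markers (grey), with the median of each list as a bar; dashed lines mark 2-fold and the 1 value past 4 is drawn at 4. The median of the 10 genes, -1.37, lies between those of the growth cone list, -0.45, and the neuron markers, -1.69.

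Markers of several cell types differed between the libraries in the same comparison. Of all genes past the minimum, 50.3% were below control, and 7.76% were lower and 7.64% higher by 2-fold or more. Of the 13 neuron markers 9 were lower by 2-fold or more. The 1 higher gene was Nhlh1, a bHLH factor of young neurons, which had 0 control and 88 sh1 counts. Excitatory lineage markers were lower by 2-fold or more in 5 of 7 cases and interneuron markers in 6 of 8, the latter with a median log2 fold of -2.83. Neurod2, a factor of excitatory neurons, had 90.7 and 28.5 CPM, and Neurod6, another, had 95.2 and 22.9 CPM. The interneuron peptide gene Sst had 88.7 and 9.89 CPM. The exceptions among interneuron markers were the homeodomain factors Dlx2, at 1.29 times control (1.13 to 1.46), and Dlx1, at 0.974 of control (0.853 to 1.11). Of 12 radial glia markers 11 were above control, with a median of 0.73. Above control too were 7 of 7 astrocyte and 8 of 9 oligodendrocyte lineage markers, with medians of 1.72 and 2.94. Astrocyte markers summed to 463 CPM in control and 1713 CPM in sh1. Aldoc had 235 and 774, Gfap 3.09 and 481, and Aldh1l1 98.3 and 176 CPM. Oligodendrocyte lineage markers summed to 2926 and 4710 CPM, and Olig1 and Olig2 supplied most of these sums. Olig1 had 1751 and 2432, Olig2 1087 and 1401, and Sox10 11.3 and 237 CPM. The exception was Mog, with 24 and 11 counts. Mesenchyme markers summed to 332 CPM in control and 40.9 CPM in sh1, with Lum, below the minimum, at 27 control and 0 sh1 counts. The smooth muscle actin gene Acta2 supplied most of these sums, and without it they were 70.7 and 18.1 CPM, which is 0.256 in place of 0.123 of control. Microglia markers summed to 5.76 and 1.71 CPM. Cx3cr1 and Csf1r, both below the minimum, had 8 and 21 control counts and 0 sh1 counts. Endothelial markers summed to 3.92 and 2.41 CPM, with Cdh5, below the minimum, at 7 control and 0 sh1 counts. Ependymal ones summed to 91.1 and 153 CPM. In the ependymal list, Foxj1 alone was higher, at 79.8 and 145 CPM, and the other 3 markers summed to 11.3 and 8.18 CPM. The part of these cells in the levels of the 10 genes was not tested.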

How the data were processed

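The deposited table holds raw counts per gene for 1 control and 1 knockdown library, per the file headers. The authors also deposited CPM values, fold changes as a ratio of these CPM, their log2 and p-values without a named test, per the file headers; none of these was used. Tools listed without order or settings, per the submitters' processing notes, are HTSeq 0.6.0, TopHat2 2.0.12 and Bowtie2 2.2.3, with the build mm9. The table's positions for all 10 members equal those of GENCODE M21 (GRCm38), which supplied lengths. Strandedness is not given in the sources used here.

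Libraries were scaled with TMM factors (edgeR 4.0.16), 1.02 for the control and 0.982 for the knockdown library. The log2 fold used a prior count of 0.5, and CPM and ratios used none. Genes averaging 1 CPM or more entered lists and background shares. Ratios have exact conditional binomial 95% intervals, and quotients of ratios approximate ones on the log scale. PCR copies of a fragment are not independent, which the intervals do not cover. The calculation was tested on simulated counts. Alternatives were DESeq2 1.42.0 size factors, total-count scaling, a prior count of 5, other expression minimums, a fold of 1.5 and other gene lengths.

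The members and gene lists were chosen with earlier results of these data known. Named genes are the 10 members, Ccdc25, the 4 of each related list with the largest absolute log2 fold, and some of the most abundant markers. Further genes are said to be named after their values were seen, or are the exceptions in a count or at 0. Values of some markers are given only as sums and counts.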

Additional observations from a re-analysis of the deposited data

How the results depend on the processing

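With 1 library per group, no library could be left out, and depth limits only the precision of counting. No paired analysis was possible because each group has 1 library. The 30 log2 folds of the members under the DESeq2, total-count and prior-count alternatives all kept their sign and moved by at most 0.052. With total-count scaling, Map2 was at 0.057 and Stmn1 at -1.10, and 1 growth cone gene was at least 2-fold lower. The count of members at least 2-fold lower was 7 or 8 across the scalings, prior counts and minimums, and 9 at 1.5-fold, which 15.7% of all genes passed in that direction. The minimums could not change this count, because every member averaged over 100 CPM.

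The numbers for all genes and for the small lists depended on the minimum and the fold, which change how many genes are counted. Without a minimum, 2475 genes were lower and 2286 higher by 2-fold or more, and the tubulin-modifying list had 1 gene lower and a median of -0.42. With a minimum of 10 CPM, 496 genes were lower and 500 higher, 1 other MAP was higher and 0 plus-end or severing genes were lower. At 1.5-fold, 2218 genes were lower and 2259 higher. At that fold the numbers lower were 6 for growth cone, 3 for plus-end and severing, 5 for kinase and 2 for tubulin-modifying genes, and 1 growth cone and 1 tubulin-modifying gene were higher. With a minimum of 100 CPM, chosen after seeing the data, 60 genes were lower and 111 higher. There, other MAPs had 0 lower and 0 higher, plus-end and severing genes 0 lower, and kinases 1 lower with a median of -0.043, and the median of the tubulin-modifying genes was 0.32. The order of the members per length depended on the length used. With the longest transcript as length, 4 members kept their place in control and 3 in sh1, and with the longest coding sequence 2 and 3 did.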

Other observations

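Genes that act on microtubule ends, cut microtubules or modify tubulin mostly lay within 2-fold. Of 19 plus-end, motor-adaptor and severing genes, 16 were below their control level, 1 by 2-fold or more, and the median log2 fold was -0.17. Of all genes past the minimum, 50.3% were below control and 7.76% were lower by 2-fold or more. Fign, the severing enzyme fidgetin, was that gene, with 74 control and 29 sh1 counts, or 0.419 of control (0.263 to 0.651). Its relative Fignl1 had a log2 fold of -0.79, Slain2, a plus-end protein, -0.60, and Clip1, which encodes the plus-end protein CLIP-170, -0.44.

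Of 11 genes of tubulin modification, 10 passed the minimum, and 0 of these passed 2-fold in either direction, with 5 below and 5 above their control level. Ttl, the ligase that restores the terminal tyrosine of alpha-tubulin, had 67.2 CPM in control and 36.5 CPM in sh1, or 0.542 of control. Vash1, a carboxypeptidase that removes this tyrosine, had 94.8 and 144 CPM, or 1.52 times control (1.43 to 1.62). Vash2, a related carboxypeptidase named after its value was seen, was at 0.748 of control (0.666 to 0.840), on the same side as Ttl, and Svbp, the partner of both carboxypeptidases, was at 1.09 times control (0.989 to 1.20). Agtpbp1, a deglutamylase, had a log2 fold of -0.76, and Ttll7, a polyglutamylase, -0.55.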
